A study of Mus musculus with 12 samples.

Results

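Among 21157 cells of Brca1-deficient mouse mammary glands and tumors, 392 epithelial cells of 1 tumor formed the population described here. They were chosen by measured counts from the 7690 cells of tumor MT1, of which 6226 were Epcam-positive (at least 1 UMI of Epcam, an epithelial adhesion molecule). A member had at most 1 UMI over the cycling genes Top2a, Mki67 and Cenpf and at least 4 UMIs summed over 6 markers, Ccl20, Tnfrsf11b, Ifi27l2a, Ubd, Cd74 and Gpx2. Its marker sum was also more than 2 times its sum over 6 opposing genes, Sfrp1, Pla2g7, Atp6v1c2, Igfbp5, Krt23 and Aqp5. A UMI is the molecular tag that Drop-seq, a droplet method reading the 3′ end of each RNA, attaches to every captured molecule. The 2 mice had the genotype MMTV-Cre; Brca1 flox/flox on a background that mixes C57BL/6 and 129/Sv. In these mice the MMTV promoter drives Cre recombinase in mammary epithelium, and both Brca1 alleles are floxed. The labels give 5 libraries of tumor MT1 and 2 of gland MG1 from the first mouse, and 3 of tumor MT2 and 2 of gland MG2 from the other. Hematopoietic and endothelial cells had been depleted, no library was wild type, and no age is stated for these 2 tumor-bearing mice. The 5 MT1 libraries held 1683944 to 6734224 UMIs and 734 to 2494 cells each. They repeat the preparation of 1 tumor and not the animal, so a spread over them says nothing of other tumors.

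Epithelial cells are not professional antigen-presenting cells, yet under interferon gamma many of them switch on MHC class II molecules, the invariant chain Cd74 that escorts these molecules, and interferon-induced GTPases. NF-kB signalling downstream of TNF family receptors turns on another group, which includes the chemokine Ccl20, a ligand of Ccr6 that draws dendritic cells and lymphocytes. Of the other markers, Ubd (FAT10) is a ubiquitin-like protein induced by interferon gamma and TNF together, Tnfrsf11b (osteoprotegerin) is a secreted decoy receptor for RANKL and TRAIL, Ifi27l2a is an interferon-induced protein and Gpx2 is an epithelial glutathione peroxidase.

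The promoter windows of Ccl20, Ubd and Gbp2 are shown because they hold letters like those that NF-kB and interferon-regulated factors bind. RefSeq windows of GRCm38.p6 run from 250 bases before to 50 bases after the gene start, 5′ to 3′ on the gene's strand. Capitals mark every match on either strand to GGGNNTTNCC (an NF-kB-like pattern) in Ccl20 and Ubd, and to TTTCNNTTTC (an ISRE-like pattern, ISRE being the interferon-stimulated response element) in Gbp2. In Ccl20 2 matches on the reverse strand overlap.
Ccl20: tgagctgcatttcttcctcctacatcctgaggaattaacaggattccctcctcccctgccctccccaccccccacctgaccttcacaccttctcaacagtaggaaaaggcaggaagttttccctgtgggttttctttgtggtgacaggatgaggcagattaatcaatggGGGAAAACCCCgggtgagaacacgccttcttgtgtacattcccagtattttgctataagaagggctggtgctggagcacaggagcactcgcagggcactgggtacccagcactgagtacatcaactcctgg
Ubd: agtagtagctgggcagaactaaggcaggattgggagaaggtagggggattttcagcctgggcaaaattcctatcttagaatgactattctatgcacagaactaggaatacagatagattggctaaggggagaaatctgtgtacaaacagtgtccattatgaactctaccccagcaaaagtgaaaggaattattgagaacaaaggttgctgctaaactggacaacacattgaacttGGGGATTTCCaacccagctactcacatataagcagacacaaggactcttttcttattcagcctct
Gbp2: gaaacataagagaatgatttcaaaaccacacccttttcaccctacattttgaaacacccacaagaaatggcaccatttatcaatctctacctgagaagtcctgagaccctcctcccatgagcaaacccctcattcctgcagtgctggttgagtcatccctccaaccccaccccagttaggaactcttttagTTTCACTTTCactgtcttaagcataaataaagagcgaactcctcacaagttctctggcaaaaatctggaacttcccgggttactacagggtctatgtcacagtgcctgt
The windows lie at chr1:83116516-83116815 (Ccl20), chr17:37193642-37193941 (Ubd) and chr3:142620413-142620712 (Gbp2), all on the plus strand. Gene positions given below come from another annotation, GENCODE, whose Gbp2 start, 142620602, differs from the RefSeq start used for its window. Of 32851 promoter windows of this length in the table, 4.79% held the NF-kB-like pattern and 3.44% the ISRE-like one. Among the 6 markers and the 15 genes with the largest differences named below, 21 genes in all, 14 had a window. The matches reported here are of the NF-kB-like pattern in Ccl20, Ubd, Ccl9 and H2-Aa, and of the ISRE-like pattern in Gbp2 and Mndal. Matches were not reported for every marker, so this list may be incomplete. A match describes letters and is neither a bound site nor a cause of the levels below.

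Members made up 33 of 618 Epcam-positive cells in MT1 replicate 1, 43 of 650 in replicate 2, 126 of 2092 in replicate 3, 125 of 1671 in replicate 4 and 65 of 1195 in replicate 5. The shares were 5.34%, 6.62%, 6.02%, 7.48% and 5.44%, a mean of 6.18% ± 0.889 (SD, n = 5), and their exact 95% intervals overlapped, so that no MT1 library stood apart. These intervals (Clopper-Pearson) and the limits for a count of 0 cover counting error only. In the glands 25 of 2841 Epcam-positive cells passed the same gate, 3 of 637 and 6 of 92 in MG1 and 6 of 1074 and 10 of 1038 in MG2. Their 207 Ubd UMIs, 113 Cd74 UMIs and 74 Ifi27l2a UMIs made up most of the marker sum, with 0 UMIs of Ccl20, 1 of Tnfrsf11b and 5 of Gpx2. In MT2 2 of 123 Epcam-positive cells passed, both with a UMI of an immune gene.

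**Figure D1:**
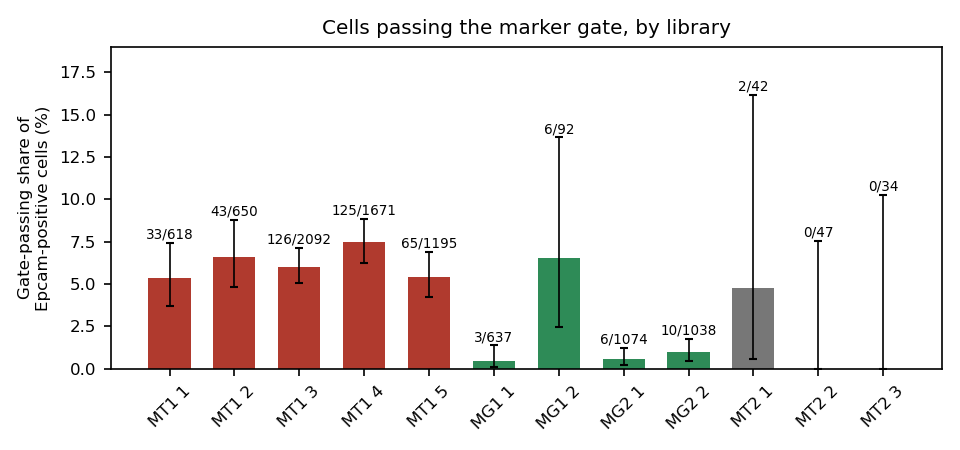
Share of Epcam-positive cells that passed the marker gate in each of 12 libraries, in percent, with exact 95% Clopper-Pearson intervals and the cell counts above each bar. The 5 MT1 libraries (red) lie between 5.34% and 7.48%, 3 of the 4 gland libraries (green) lie below 1% and MG1 replicate 2 rests on 6 of 92 cells.

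The members differed among themselves in which markers they carried. Of the 392, 18 had UMIs of 1 marker, 93 of 2, 141 of 3, 96 of 4, 37 of 5 and 7 of all 6. The marker sum had a median of 6 and reached 45, and 62.8% of members also had an opposing UMI. At the threshold, 93 members had a sum of 4, and 138 cells that met every other condition had a sum of 3. Ccl20 was concentrated in few cells, because 50 members with 4 or more UMIs held 76.1% of the members' Ccl20 UMIs. These 50 cells came from all 5 libraries (6, 2, 18, 17 and 7). Members had a median of 2299.5 UMIs per cell against 2141.5 in the other Epcam-positive MT1 cells. Their median mitochondrial share was lower in all 5 libraries, at 4.22%, 6.23%, 7.87%, 4.63% and 8.24% against 5.01%, 6.68%, 8.73%, 5.15% and 8.93%.

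The markers chose the cells, so their levels are given as a description. In members summed per library, Ccl20 (chromosome 1, 83116766 to 83119167) was at 868, 131, 581, 455 and 598 CPM (counts scaled to 1000000 per class and library) in replicates 1 to 5, against 35.9 to 81.2 CPM in the other Epcam-positive cells. Replicate 2 was the lowest of the 5 by far. Tnfrsf11b was at 376 to 561 CPM against 75.3 to 111, and Gpx2 at 262 to 391 CPM against 82.5 to 122, both without overlap. Of the opposing genes, Igfbp5 averaged 113 CPM in members and 1329 CPM in the others, and Sfrp1 13.6 and 304 CPM. Ubd (chromosome 17, 37193892 to 37196095) was found with a UMI in 69.1% of members and 19.5% of the others, Tnfrsf11b in 58.7% and 15.4%, Ifi27l2a in 57.1% and 15.4%, Gpx2 in 52.6% and 21.0%, Cd74 in 45.7% and 9.36%, and Ccl20 in 32.7% and 6.96%. As a reference for free RNA, the same shares were taken in 628 Epcam-negative MT1 cells. These had at least 3 UMIs over the fibroblast genes Dcn, Lum and Pdgfra and a median depth of 2367 UMIs. A UMI of Vim was found in 99.4% of them, but of Col1a2 in 10.8%, Col3a1 in 9.87% and Col1a1 in 8.28%. Whether they were fibroblasts or mesenchymal tumor cells was not tested, and their marker UMIs need not be free RNA. The marker shares in these cells were 6.69% for Ubd, 3.66% for Tnfrsf11b, 4.30% for Ifi27l2a, 1.75% for Gpx2 and 0.796% for both Cd74 and Ccl20. Each was below the share in the other Epcam-positive cells.

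Each marker was then read in cells gated on the other 5, so that its own counts did not choose the cells. All 6 were higher in the gated cells than in the rest in 5 of 5 libraries. On the log2(CPM + 10) scale used for every difference within MT1, the mean difference was 1.63 ± 0.37 (SD over 5 libraries) for Tnfrsf11b, 1.53 ± 0.40 for Cd74, 1.50 ± 0.34 for Ubd, 1.43 ± 0.94 for Ccl20, 1.28 ± 0.40 for Ifi27l2a and 0.85 ± 0.27 for Gpx2. The markers were proposed with these cells in view, so this is a description of how they went together. Against the glands they ranked differently. Ccl20 was at 0 to 2.03 CPM in noncycling Epcam-positive gland cells, whereas Ubd reached 26.0 to 108 CPM there. Both had 0 UMIs in all 3 MT2 libraries.

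Members were compared with the other Epcam-positive cells library by library for every gene. Because the gate was set on the same cells, this comparison is given with no test. A gene was counted when its mean difference was at least 2-fold and it had the same sign in all 5 libraries. Of 17948 detected genes outside the rule, 75 (0.418%) were higher and 149 (0.830%) lower in members, and of 5848 genes at a mean of 20 CPM or more 69 (1.18%) were higher and 89 (1.52%) lower. The median difference over all detected genes was -0.048. A positive difference was found in 6351 of the 17948 detected genes and in 2885 of the 5848 at 20 CPM or more. With totals scaled by TMM instead of the plain sums, 42 genes were higher and 223 lower. Most genes named below were picked for large differences, which favours groups without overlap. The share of all genes without overlap was not counted. The comparison cells include cycling and Vim-high cells. Against only noncycling cells with at most 1 opposing UMI, a comparison chosen after seeing the data, 21 genes were higher, 13 of them among the 75, and 132 lower, 42 of them among the 149. This comparison removes cycling cells but not Vim-high ones, and the mesenchymal differences were larger in it, at -2.75 for Vim, -3.15 for Dcn and -2.74 for Col1a2 against -1.51, -2.11 and -1.81.

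3 MHC class II chains were among the 15 genes with the largest differences. H2-Aa, the alpha chain of I-A (chromosome 17, 34282744 to 34287823), was at 104, 124, 117, 131 and 139 CPM in the members of replicates 1 to 5 and at 25.4, 30.3, 25.2, 30.5 and 44.0 CPM in the other cells. The lowest member value was above the highest value of the others, with a mean difference of 1.71 ± 0.15 (SD, n = 5). H2-Ab1, its beta chain (chromosome 17, 34257689 to 34269419), was at 111 to 183 CPM against 36.1 to 41.9, a difference of 1.66 ± 0.31. H2-Eb1, the I-E beta chain (chromosome 17, 34305867 to 34316674), was at 77.7 to 170 CPM against 23 to 37.6, a difference of 1.78 ± 0.27. For none of the 3 chains did the members' values overlap those of the other cells. The protease Ctss, which trims the invariant chain, was also higher (1.21 ± 0.93) but rested on 23 UMIs in 17 members. In all, 4 of the 9 detected class II genes passed the 2-fold count, with a list median of 0.37.

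An MHC class II chain was detected in 49.7% of members, in 13.9% of the other Epcam-positive cells and in 12 of the 628 fibroblast-gate cells (1.91%). It was detected in 64.8% of the 179 members with a Cd74 UMI and still in 37.1% of the 213 members without one. The 3 differences stayed past 2-fold against noncycling cells with at most 1 opposing UMI, at 1.42 for H2-Ab1 and 1.57 for H2-Eb1. With Cd74 left out of the marker sum, they were 1.23 for H2-Aa, 1.33 for H2-Ab1 and 1.31 for H2-Eb1.

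Class II genes are the defining product of B cells, dendritic cells and macrophages, so immune markers were read in the members. Over 11 immune genes, among them Ptprc (CD45), Lyz2, Tyrobp, Fcer1g, Cd3e and Cd79a, at least 1 UMI was found in 7 members (1.79%) and 29 other cells (0.497%). The summed level of the 14 immune-list genes detected in Epcam-positive MT1 cells was 6.30 to 380 CPM in members and 6.24 to 10.9 CPM in the others. Of those 14 genes 9 had a positive difference, 0 passed the 2-fold count and 4 had no UMI in members. Among the defining markers of the 28 listed, Cd79a, Ms4a1, C1qa, C1qc, Adgre1, Itgax, Flt3 and Laptm5 had no UMI in any member, and Ptprc had 1. Some of these zeros were shared with the other Epcam-positive MT1 cells, since only 4 of the 14 detected genes were at 0 in members. A single member held 49 of the 52 Lyz2 UMIs and 54 UMIs of the 11 immune genes, with 10 of 130 H2-Aa UMIs and 6 of 23 Ctss UMIs. Without any cell that had such a UMI the differences were 1.59 for H2-Aa, 1.62 for H2-Ab1 and 1.67 for H2-Eb1. No doublet caller was run and no doublets were removed. Of the members' barcodes 1 was shared with another MT1 library.

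**Figure D2:**
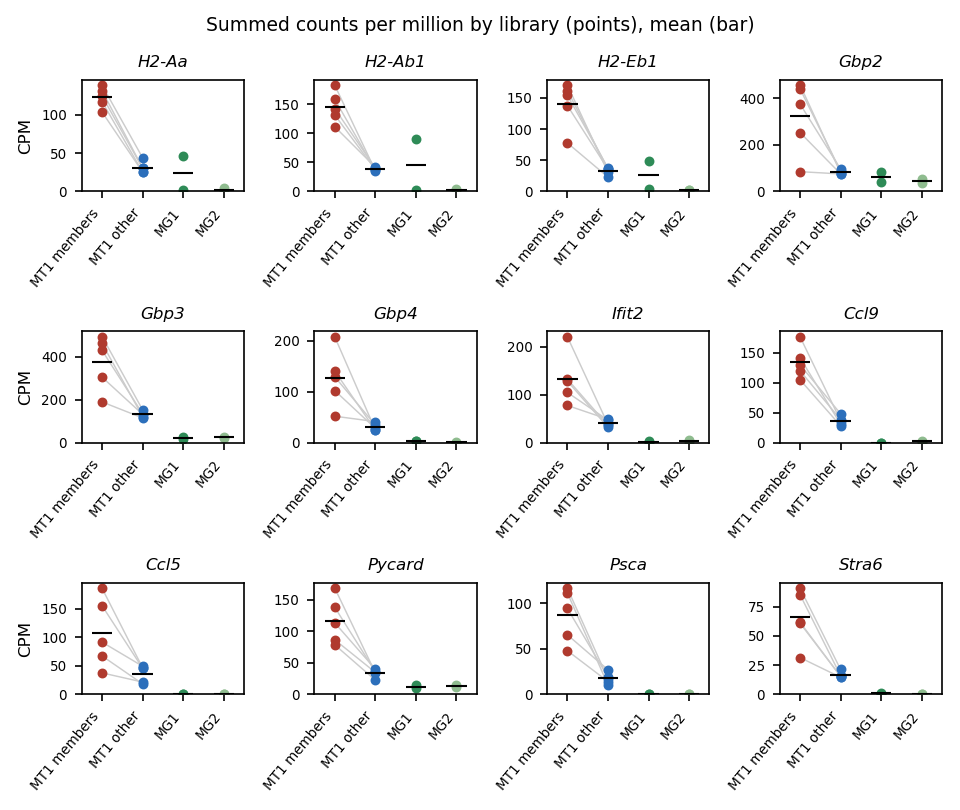
Summed CPM per library (points) and group mean (black bar) for 12 genes in MT1 members, other Epcam-positive MT1 cells and noncycling Epcam-positive cells of MG1 and MG2, with grey lines joining the 2 MT1 values of a library. Members lie above the other cells in all 5 libraries for each gene, and MG1 replicate 2 has the higher gland value for the 3 class II chains.

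Interferon targets were read next. Of 50 listed genes, 7 were higher by the 2-fold count and 0 lower. Of these 50, 44 had a positive difference, against 6351 of all 17948 detected genes. The list median was 0.49. Over genes at a mean of 20 CPM or more the median was 0.51, against 1.71 for 3 class II genes and 0.56 for 14 chemokines. The 7 were the guanylate-binding proteins Gbp2, Gbp3 and Gbp4, which attack the membranes that enclose intracellular pathogens, the tetratricopeptide proteins Ifit2 and Ifit3, the nucleic acid sensor Zbp1 and the feedback inhibitor Socs1. Gbp2 (chromosome 3, 142620602 to 142638008) was at 376, 85.2, 458, 253 and 441 CPM in members and at 96.0, 75.3, 79.8, 75.7 and 87.5 CPM in the others. The difference averaged 1.65 ± 0.88 but was only 0.16 in replicate 2, where the values were close. Gbp4 was also lowest in replicate 2, at 130, 52.4, 141, 103 and 208 CPM against 25.4 to 41.9, a difference of 1.62 ± 0.87. Ifit2 was at 77.7 to 220 CPM against 32.5 to 49.2, a difference of 1.43 ± 0.65, and replicate 1 was lowest there. Mndal, a DNA-sensing protein of the Ifi200 family outside the list, was at 285 to 510 CPM against 127 to 162, a difference of 1.44 ± 0.43. In the comparison with noncycling cells of at most 1 opposing UMI, Gbp2 (0.91), Gbp3 (0.93), Gbp4 (0.67), Ifit2 (0.94) and Mndal (0.90) fell short of 2-fold. The values of Ifit3, Zbp1 and Socs1 in that comparison are not given here.

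The members of replicate 2 thus had the lowest Ccl20, Gbp2, Gbp3 and Gbp4 levels of the 5 libraries and 0 UMIs of the interferon-induced chemokine Cxcl9. Cd74 was highest there in both classes, at 531 CPM in members and 103 CPM in the other cells, and its difference of 2.26 lay within the range of the other libraries. Cxcl9 was at 51.8, 0, 249, 73.7 and 290 CPM, and its difference (1.29 ± 2.47) was negative in that library. Without replicate 2, 91 genes were higher and 149 lower. Whether this library differs in preparation was not tested.

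Of 20 listed genes of MHC class I presentation 18 had a positive difference, none reached 2-fold, and the median was 0.31. Psme2, an interferon-induced subunit of the proteasome activator PA28, was highest at 0.96 ± 0.18, with 347 to 570 CPM in members and 192 to 275 CPM in the others. Tapbp, the tapasin that loads class I molecules, differed by 0.80 ± 0.19.

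Among NF-kB targets 3 of 37 were higher and 0 lower, with a median of 0.28. Csf1, the growth factor of macrophages, was at 181, 210, 346, 250 and 258 CPM in members and 89.9 to 99.3 CPM in the others (1.29 ± 0.38). Tnfaip2 differed by 1.09 ± 0.43 and Tnip3, an inhibitor of NF-kB signalling, by 1.04 ± 0.54, the latter with overlapping groups. None of Csf1, Tnfaip2 and Tnip3 reached 2-fold against noncycling cells with at most 1 opposing UMI (0.47, 0.71 and 0.39). Vcam1, an adhesion molecule, differed by 0.96 ± 0.28. Among chemokines 2 of 24 were higher, and both stayed past 2-fold against those cells, Ccl9 at 1.25 and Ccl5 at 1.91. Ccl9, a ligand of Ccr1, was at 130, 105, 176, 141 and 120 CPM in members and 28.5 to 48.4 CPM in the others, with no overlap and a difference of 1.62 ± 0.31. Ccl5, a chemokine made by T cells and by interferon-treated epithelium, was at 155, 91.7, 67.5, 186 and 37.8 CPM against 18.5 to 49.5 (1.23 ± 0.52), and the lowest member value lay within the range of the others.

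Other groups that the word inflammatory could cover were mixed. None of 19 genes of the TNF family and RANK axis passed the 2-fold count (median 0.050). Of 27 secreted innate defence genes 1 was higher and 4 lower. Their median was -0.20 over all 27 and 0.098 over the 15 at a mean of 20 CPM or more, and their summed level was 11932 to 17117 CPM in members and 9552 to 14538 CPM in the others. The lower ones were the acute-phase proteins Saa1 and Saa2, the lipopolysaccharide-binding protein Lbp and S100a8, a subunit of calprotectin. S100a8 was at 0, 32.8, 5.87, 35.3 and 12.6 CPM in members and 53.3 to 119 CPM in the others (-1.91 ± 0.54). Saa1 was at 0 to 25.2 CPM against 34.6 to 56.2 (-1.64 ± 0.79), but its difference was 0.054 against noncycling cells with at most 1 opposing UMI. The higher one, the iron-binding milk protein Ltf (1.68 ± 1.39), rested largely on 1 cell of replicate 3 that held 182 of 277 UMIs. In the antioxidant list that holds Gpx2, 0 of 37 other genes were higher and 2 lower, Gss and Nqo1, neither past 2-fold against noncycling cells with at most 1 opposing UMI (-0.74 and -0.11). The label is therefore used here only as a name for cells chosen by the 6 markers.

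**Figure D3:**
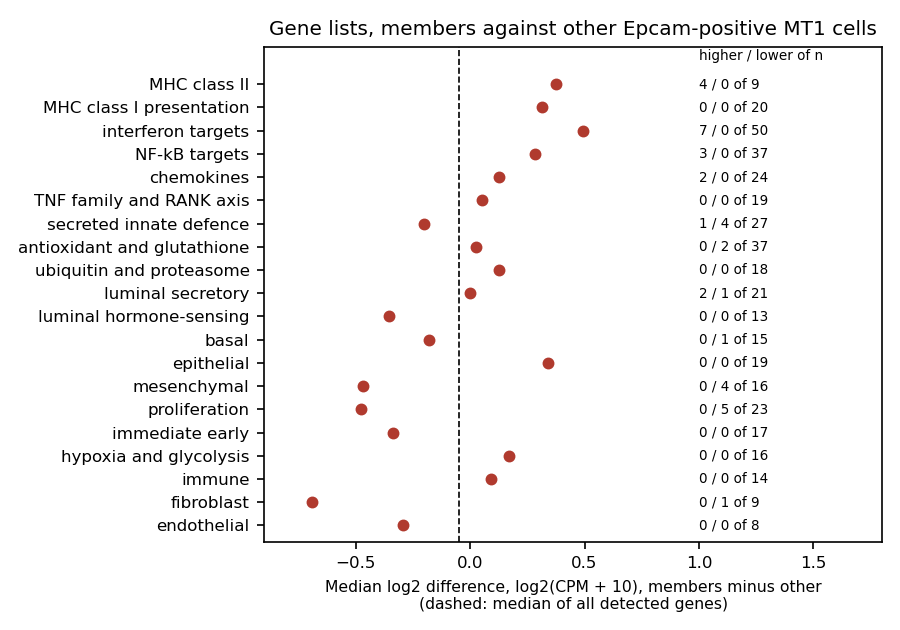
Median log2(CPM + 10) difference, members minus other Epcam-positive MT1 cells, for 20 gene lists without the genes of the rule, and the counts of genes past 2-fold with 1 sign in all 5 libraries. Over all detected genes the interferon target list has a median of 0.49 and the fibroblast list the lowest, and the dashed line is the median of all detected genes, -0.048.

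Several of the largest differences lay outside these lists. Psca, a GPI-anchored surface protein, was at 117, 65.5, 112, 48.1 and 94.5 CPM in members and 10.5 to 27.2 CPM in the others (1.78 ± 0.64). Pycard, the adaptor (ASC) of inflammasomes, was at 78.6 to 168 CPM against 22.7 to 40.2 (1.50 ± 0.35). Stra6, the retinol uptake receptor, was at 31.5 to 90.7 CPM against 14.7 to 21.3 (1.46 ± 0.42). For none of these 3 genes, picked as largest differences, did the groups overlap. The phospholipase Plb1 differed by 1.48 ± 0.19, the mucus protein Fcgbp by 1.47 ± 0.53 and the collectin Sftpd by 1.44 ± 0.32, and the nucleoside transporter Slc28a3 differed by 1.71 ± 0.55. Their members' levels were 98.3 to 156 CPM for Plb1, 64.8 to 247 CPM for Fcgbp, 69.3 to 111 CPM for Sftpd and 38.5 to 113 CPM for Slc28a3. Against noncycling cells with at most 1 opposing UMI, Pycard (1.22), Plb1 (1.06) and Slc28a3 (1.02) stayed past 2-fold, whereas Psca (0.99), Stra6 (0.88), Fcgbp (0.78) and Sftpd (0.66) did not. In the list of ubiquitin and proteasome genes 0 of 18 passed 2-fold (median 0.13), the largest being the ISG15-conjugating enzyme Ube2l6 at 0.70 ± 0.40.

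Epithelial genes were read beyond Epcam, which chose the cells. Of 19 epithelial genes outside the rule 15 had a positive difference, none past 2-fold, with a median of 0.34, and the summed level was 9311 to 11582 CPM in members and 7177 to 8765 CPM in the others. Krt19, a simple keratin of luminal cells, differed by 0.79 ± 0.34 and the tight junction protein Cldn4 by 0.91 ± 0.49, both with overlapping groups. Against noncycling cells with at most 1 opposing UMI Krt19 differed by -0.054 and Cldn4 by 0.63. Mesenchymal genes were lower, 4 of 16 by the 2-fold count and 0 higher. Vim, the intermediate filament of mesenchymal cells, was at 143, 373, 326, 263 and 126 CPM in members and 567 to 724 CPM in the others (-1.51 ± 0.71). The hormone-sensing list had 0 of 13 past 2-fold and the basal list 1 of 15, Krt15, which had 4 UMIs in members.

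Cst3, the secreted protease inhibitor cystatin C, was at 64.8, 59.0, 55.8, 48.1 and 50.4 CPM in members and 255 to 341 CPM in the others (-2.21 ± 0.27), the smallest SD among the lowest genes named here, and the groups did not overlap. Xist, the RNA that silences one X chromosome, was at 25.9 to 64.6 CPM against 149 to 212 (-2.02 ± 0.33). Ptn (pleiotrophin, -2.76 ± 1.82) and the casein Csn1s1 (-2.04 ± 1.37) had wide spreads, and 1 member held 29 of 41 Ptn UMIs and another 20 of 52 Csn1s1 UMIs. Gng11 (-2.11 ± 0.69), Dcn (-2.11 ± 0.83), Sparcl1 (-1.96 ± 1.08) and Pipox (-2.03 ± 0.29, 1 UMI in members) were also among the lowest, as was S100a8. Against noncycling cells with at most 1 opposing UMI the differences were -1.72 for Cst3, -1.69 for Xist, -0.50 for Pipox, -0.57 for Csn1s1 and -0.87 for S100a8. Vim differed by -2.75 there, and the 451 of those cells with a marker sum of 0 had 2932 CPM of Vim, 333 CPM of Cst3 and 231 CPM of Xist. The part of the Vim-high cells in the Cst3 and Xist differences was not tested. Of the 9 genes of the fibroblast list Dcn alone passed the 2-fold count and 0 had a positive difference, and Pdgfra had no UMI in members. Its summed level was 38.9 to 273 CPM in members and 300.3 to 628 CPM in the others. The part of fibroblast RNA in the lower values was not tested.

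**Figure D4:**
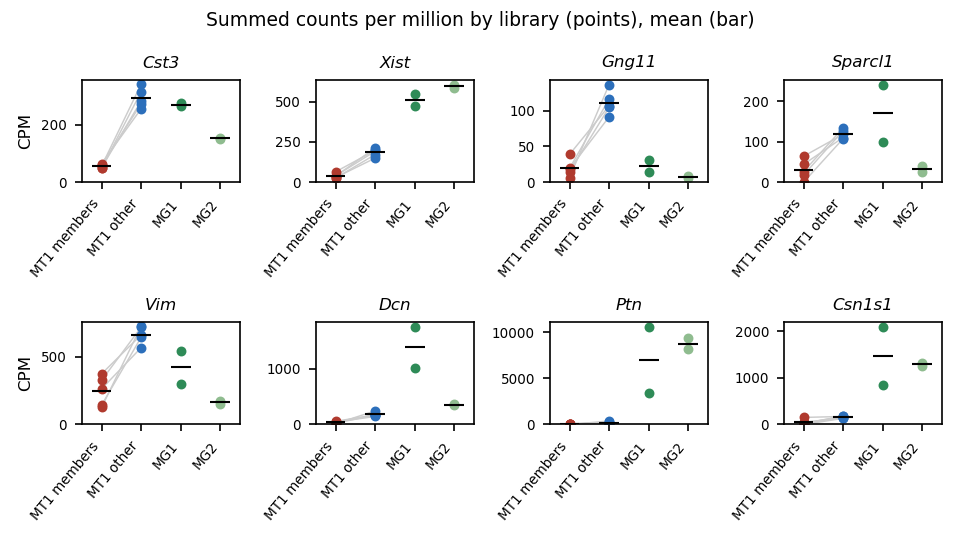
Summed CPM per library (points) and group mean (black bar) for 8 genes lower in members, in MT1 members, other Epcam-positive MT1 cells and noncycling Epcam-positive cells of MG1 and MG2. Cst3 and Xist separate members from the other cells without overlap, while for Ptn and Csn1s1 both MT1 classes lie far below the glands.

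Of the proliferation list, 5 of 23 genes were lower and 0 higher, which the rule's limit on cycling cells bears on directly. Against noncycling comparison cells the difference was 0.26 for Ube2c, 0.22 for Birc5 and 0.068 for Ccnb1, where it had been -1.35, -1.11 and -1.16. With those cells further limited to at most 1 opposing UMI it was -0.47 for Ube2c, -0.20 for Birc5 and 0.059 for Ccnb1. Of 17 immediate early genes 0 passed the 2-fold count within MT1, 3 had a positive difference and the median was -0.34. The targeted gene Brca1 had 6 UMIs in members (5.03 ± 2.82 CPM) against 12.2 ± 4.05 CPM in the others, and a 3′ count carries no information on recombination of the floxed alleles. Trp53 differed by -0.15 ± 0.20, with overlapping groups, and by 0.082 against noncycling cells with at most 1 opposing UMI.

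How the levels changed below the threshold was read in noncycling Epcam-positive MT1 cells with at most 1 opposing UMI, split by marker sum. The 3 class II chains together were at 45.6 ± 28.0 CPM (SD, n = 5 libraries) in 451 cells with a sum of 0, 158 ± 73.5 at 1, 195 ± 101 at 2, 214 ± 39.7 at 3, 284 ± 177 at 4 to 5 and 599 ± 124 in 127 cells at 6 or more. The guanylate-binding proteins were flat from a sum of 1 to 3, at 398 to 494 CPM, and were at 779 ± 290 and 1069 ± 602 CPM in the highest 2 bins. Vim was at 2932 ± 503 CPM at 0, 754 ± 317 at 1 and 114 ± 59.7 at 6 or more, and Cav1, a caveolin, at 4315 ± 1217, 1016 ± 604 and 176 ± 105 in the same bins. Clu, a secreted chaperone, was at 526 ± 93.0 CPM at 0 and 1137 ± 304 at 1, and stayed between 1314 and 1668 CPM above. Median depth was 1720 UMIs at 0 and 2438 at 6 or more, and its part in the trend was not tested.

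**Figure D5:**
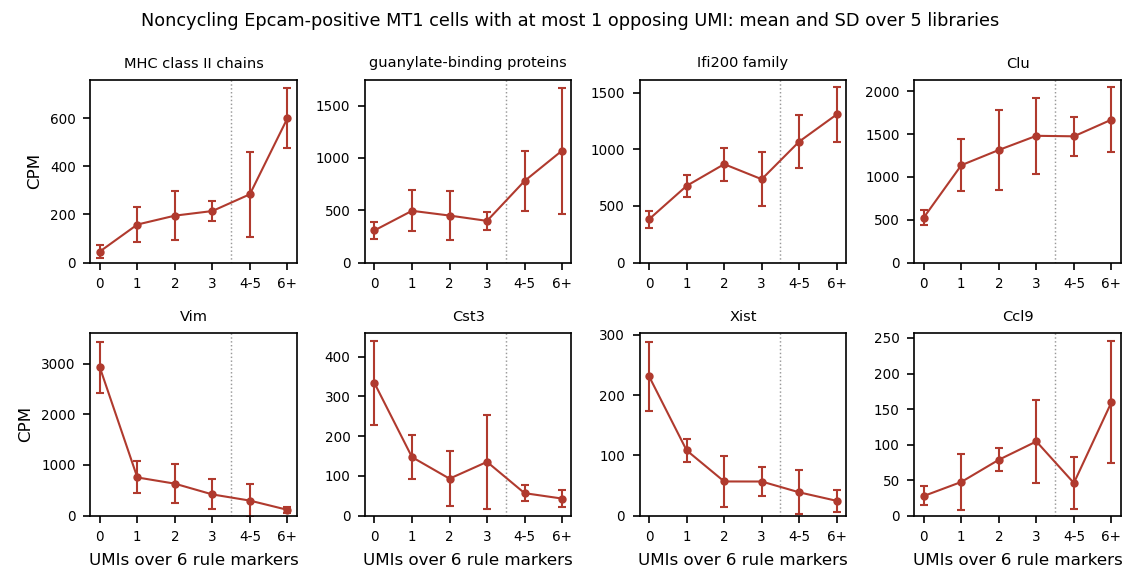
CPM (mean and SD over 5 MT1 libraries) against the UMI sum over the 6 rule markers, in noncycling Epcam-positive MT1 cells with at most 1 opposing UMI, with the threshold of 4 as a dotted line. Class II chains, guanylate-binding proteins and the Ifi200 family are highest at 6 or more UMIs, Vim, Cst3 and Xist are highest at 0, and Ccl9 is not monotonic.

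The members were tested against noncycling Epcam-positive cells of the gland of the same mouse (625 and 90 cells in the 2 MG1 libraries), summed per library, with edgeR's quasi-likelihood test. Of 6275 genes tested outside the rule, 1582 (25.2%) were called higher and 1865 (29.7%) lower at a Benjamini-Hochberg adjusted p under 0.05. Members were chosen for high marker counts and gland cells were not, so genes that accompany the markers are placed higher by the choice. The same fit on the other noncycling Epcam-positive MT1 cells is therefore set beside it. It called 29.2% of 12356 genes higher and 28.3% lower. Both share the MG1 libraries, and the difference between them was not tested.

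Class II genes were called higher for 3 of 5 tested in members (median 2.63) and for 0 of 6 in the other tumor cells (median 0.52). The 3 were H2-Eb1, H2-Aa and Ctss. Ctss rested on 6 UMIs in MG1 and 23 in members, and its call was lost without MG1 replicate 1 (adjusted p 0.107). H2-Eb1 had a log2 fold change of 2.69 (SE 0.67, edgeR adjusted p 0.00329) in members and 0.76 (SE 0.60, adjusted p 0.291) in the other cells. H2-Aa had 2.63 (SE 0.80, adjusted p 0.0119) and 0.79 (SE 0.77, adjusted p 0.392). The H2-Aa call was lost with DESeq2 (adjusted p 0.113), with no filter on low counts (0.0688) and against luminal secretory gland cells alone (0.0755), with log2 fold changes of 1.72 to 2.63. H2-Ab1 was not called (1.68, SE 0.76, adjusted p 0.0720). The MG1 libraries differed in these genes, H2-Ab1 being at 2.85 CPM in replicate 1 and 89.9 CPM in replicate 2, where 6 gate-passing cells held 90 chain UMIs and 4 of the 6 had a UMI of those immune genes. Without cells that had an immune UMI, H2-Ab1 was called at 3.97 (adjusted p 3.77e-05). Leaving out MG1 replicate 2, the library with the higher H2-Ab1, put it at 5.27 (adjusted p 8.78e-14) against a gland arm of 1 library, whose spread is assumed to be that of the other groups.

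Interferon targets were called higher for 31 of 43 and lower for 1 in members (median 2.19), and for 34 of 49 and 1 in the other tumor cells (median 1.62), so most of this list was called above the gland level in both classes of tumor cell. Gbp2 had a log2 fold change of 2.19 (SE 0.47, adjusted p 0.00119) in members and was not called in the others (0.51, SE 0.25, adjusted p 0.0869). Gbp4 was called in both, at 4.71 (SE 0.54, adjusted p 5.62e-06) and 2.87 (SE 0.36, adjusted p 1.46e-05). MHC class I presentation was called higher for 11 of 17 genes and lower for 1, and for 12 and 5 of 20 in the others.

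Chemokines were called higher for 9 of 18 and lower for 6, and NF-kB targets higher for 10 of 30 and lower for 5. In the other tumor cells the counts were 9 of 21 and 7, and 12 of 33 and 8. Ccl9, Ccl5 and Psca had 0 UMIs in MG1, which allows 0.875 CPM over the group at 3 counts. Against that floor members were at least 164-fold higher for Ccl9, at least 124-fold for Ccl5 and at least 95.5-fold for Psca, and the other tumor cells at least 38.7-fold, 37.4-fold and 17.5-fold. Stra6 was called at 5.70 (SE 0.60, adjusted p 2.94e-06) in members and 3.73 in the others, on 3 UMIs in MG1. Plb1 was called in members (2.18, SE 0.35, adjusted p 1.11e-04) and had 0.56 (adjusted p 0.0932) in the others.

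Genes lower than in the gland included most tested genes of several lineage lists. The MG1 cells mix epithelial lineages. Against the luminal secretory gland cells alone (330 and 54 cells) 1775 genes were called lower, 1576 of them among the 1865, and the lists below were not recounted in that fit. All 12 tested hormone-sensing genes were called lower in members (median -5.61), as were 8 of 9 basal genes (median -4.93), 7 of 7 fibroblast genes and 13 of 17 immediate early genes. In the other tumor cells the lower calls were 11 of 12, 11 of 13, 5 of 8 and 6 of 17, with 3 immediate early genes higher. The call of the immediate early gene Fos (-1.18, adjusted p 0.00193) was lost without MG1 replicate 1 (-0.37, adjusted p 0.206). Of 16 epithelial genes 6 were called lower and 2 higher in members, against 8 and 4 of 19 in the others, with Krt19 at -1.31 (SE 0.22, adjusted p 1.85e-04) in members. The prolactin receptor Prlr was at -5.89 (SE 0.30, adjusted p 8.60e-09) and at -4.46 in the other tumor cells. Cst3 was lower in members (-2.63, SE 0.19, adjusted p 1.25e-07) and near the gland level in the others (0.17, SE 0.15, adjusted p 0.350). Xist was lower in both, at -3.90 (SE 0.24, adjusted p 3.22e-08) and -1.50 (SE 0.16, adjusted p 2.53e-06). Proliferation genes were called higher for 12 of 14 in members, where both sides were limited to noncycling cells by the rule genes, with a median of 1.99, and for 18 of 22 in the others, with a median of 2.93. Trp53 was called at 0.89 (SE 0.25, adjusted p 0.00754) in members and at 1.21 (SE 0.18, adjusted p 4.75e-05) in the others.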

How the data were processed

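Drop-seq libraries of mammary glands and tumors were sequenced by the authors, processed with Drop-seq tools and STAR against GRCm38.p6, and deposited as raw UMI counts per gene and cell (21743 genes, 21157 cells) with no normalization. Cells had been filtered by the authors on detected genes and mitochondrial share. Whether counting used strand is not given in the sources used here, so overlapping genes and close paralogs such as the Gbp genes are uncertain. Replicate numbers follow the accession order and pair no samples. Cells of 1 library were summed by class (77189 to 340760 UMIs per member sum, where 1 UMI is 2.93 to 13 CPM), scaled to CPM of the sum and compared as log2(CPM + 10) differences without a test. Sums of members and of gland cells were tested with edgeR 4.0.16 (R 4.3.3, quasi-likelihood, TMM, filterByExpr), with the MG2 libraries in the fit to share the dispersion. The replicates of this test are libraries of 1 tumor and 1 gland, so its p-values measure a spread that may be technical. Both steps were tested on simulated data. The members and lists were chosen with earlier results of these data known. Named genes were the 15 largest and 10 smallest differences with 1 sign in 5 libraries and 20 CPM or more in the higher class, the 4 largest per list, the rule genes, Brca1 and Trp53, with Saa2, Lbp, Ifit3, Zbp1, Socs1 and Clu named after their values were seen. Promoters are RefSeq windows. Pattern matches are not reported for the marker Cd74, and whether its window held one is not given here. 1 of the 10 smallest is not reported here, and not every list gene is printed.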

Additional observations from a re-analysis of the deposited data

Results flagged for a closer look

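Cells passing the gate were counted outside MT1, in data the comparison within MT1 does not use. There were 6 in MG1 replicate 2, 6 in MG2 replicate 1 and 10 in MG2 replicate 2, each above the 3 counts that a count of 0 allows. In MG1 replicate 2 the 6 cells held 109 Cd74 UMIs and 90 class II chain UMIs, and 4 of them had a UMI of an immune gene. In MG2 the 16 cells held mostly Ubd UMIs, 58 in each library, with 49 and 15 UMIs of Ifi27l2a, 0 of Gpx2 and 0 of the class II chains. Why these cells passed was not tested.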

How the results depend on the processing

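Within MT1, the 75 higher and 149 lower genes became 42 and 223 with TMM-scaled totals, 159 and 1306 with a pseudocount of 1 CPM, 15 and 19 with 50 CPM, 75 and 274 with cells thinned to 1000 UMIs, and 82 and 235 with a marker sum of 6 or more. Against noncycling cells with at most 1 opposing UMI, chosen after seeing the data, they were 21 and 132, and Saa1 (0.054) and Ccnb1 (0.059) turned, as did 6 named genes outside the rule that had not passed 2-fold, Krt19 (-0.054), Trp53 (0.082), Csn3 (0.50), Fam3c (0.37), Krt17 (-0.44) and Pgk1 (-0.0059). Against all noncycling cells Ube2c (0.26), Birc5 (0.22) and Ccnb1 (0.068) turned, and the comparison's own construction removes cycling cells there. For the other counts the cause was not tested. Without 1 MT1 library there were 75 to 91 higher and 149 to 202 lower genes. The member share of 6.18% was 8.30% at a sum of 3, 3.41% at 6, 5.02% without Cd74 and 2.71% when cells were thinned to 1000 UMIs before the gate, where 146 cells passed, 115 of them members. Against MG1, 1582 higher and 1865 lower genes became 1424 to 1588 and 1775 to 2443 under the other settings, and 1288 to 1721 and 1840 to 2082 without 1 library. The other tumor cells, an alternative added later with more genes tested, gave 3610 and 3499. Ctss, Tnfsf10 and Fos were not called without MG1 replicate 1 (edgeR adjusted p 0.107, 0.0895 and 0.206), nor Vim without MG1 replicate 2 (0.0503) or with no low-count filter (0.0627), and H2-Ab1 was called without MG1 replicate 2 (8.78e-14). In the fits without an MG1 replicate MG1 is 1 library, assumed to vary like the others. The gate was not tested within glands, since 1 gland library had the 10 passing cells set as the minimum. The differences within MT1 are taken library by library. Between MT1 and MG1 no paired analysis was possible because the numbers pair no libraries.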

Other observations

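The glands held several of the members' higher genes at similar or higher levels. Fcgbp was at 125 CPM in both MG1 libraries and at 226 and 352 CPM in MG2, against 64.8 to 247 CPM in members. Slc28a3 was at 36.0 to 183 CPM in the glands against 38.5 to 113 CPM in members, and the milk fat globule protein Mfge8 at 439 to 1194 CPM against 534 to 668 CPM. Within MT1 the Mfge8 difference was 1.01 ± 0.14, and 0.67 against noncycling cells with at most 1 opposing UMI. These 3 were at most 1.91, 0.587 and 118 CPM in MT2 for Slc28a3, Fcgbp and Mfge8. Psca had 0 UMIs in all gland and MT2 libraries.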
